A study of Homo sapiens with 6 samples.

Results

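The genes described here are 10 genes whose surface or secreted products restrain immune attack on a cell. They were chosen by name: CD274, CD276, PVR, NECTIN2, LGALS3, CD47, CMTM6, CD46, CD55 and CD59. All 10 had a row among the 12180 genes of the deposited table, and 43 of the 33090 transcripts belonged to them. The RNA came from TE-1, a human esophageal squamous cell carcinoma line, in 3 FGL1-OE libraries and 3 NC libraries. FGL1-OE cells carried a lentivirus that overexpresses FGL1, which encodes a ligand of LAG3, an inhibitory receptor of T cells. NC cells, labelled as wild type in genotype, carried a lentivirus with random nonsense sequences. Both were stable lines selected with puromycin, and the comparison asks what FGL1 overexpression does to the transcriptome. No source used here says that the 3 libraries of a group came from separate cultures, so every p-value measures the spread between these libraries, which may be technical.

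Checkpoint ligands bind inhibitory receptors on T cells, natural killer cells and macrophages and damp their response. CD274 encodes PD-L1, the ligand of PD-1, CMTM6 encodes the membrane protein that keeps PD-L1 from being degraded, and CD276 encodes B7-H3. PVR and NECTIN2 are ligands of TIGIT and of the activating receptor DNAM-1, LGALS3 encodes galectin-3, and CD47 sends a "do not eat me" signal to macrophages through SIRPA. CD46, CD55 and CD59 guard the cell's own membrane against complement. CD46 is a cofactor for the cleavage of C3b and C4b, CD55 speeds the decay of the C3 convertases, and CD59 blocks the membrane attack complex. CD55 and CD59 are held by a glycosylphosphatidylinositol (GPI) anchor, whereas CD46 spans the membrane.

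Several of these genes make products that differ at the C-terminal end, and the transcript results for CD55, CD46 and CD47 turn on such ends. The coding sequences at the ends are shown so that the products can be told apart. They were read from GENCODE release 29 transcripts on GRCh38, each with 15 bases of shared coding sequence in lower case. For CD55-204 (chr1:207339404-207359610, plus strand, across an intron) capitals mark the bases after the point where it parts from CD55-201, stop codon included.
CD55-204: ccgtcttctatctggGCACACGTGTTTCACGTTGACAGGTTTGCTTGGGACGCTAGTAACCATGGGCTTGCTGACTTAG

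The end of CD55-204, which CD55-205 and CD55-206 share, is that of the GPI-anchored protein. The protein of CD55-201 ends in 79 residues after the last stretch it shares with that of CD55-204. CD46 has 2 alternative cytoplasmic tails, known as CYT-1 and CYT-2. They are shown from their most abundant transcripts, CD46-208 (CYT-1, chr1:207785668-207790304, plus strand) and CD46-206 (CYT-2, chr1:207785668-207793591, plus strand), with the bases of each tail up to and including the stop codon in capitals.
CD46-208: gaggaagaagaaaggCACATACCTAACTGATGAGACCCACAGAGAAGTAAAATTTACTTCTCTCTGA
CD46-206: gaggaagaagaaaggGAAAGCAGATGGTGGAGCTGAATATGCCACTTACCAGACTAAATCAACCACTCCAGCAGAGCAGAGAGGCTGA

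CD47 ends in cytoplasmic tails of different length. CD47-202 (chr3:108047288-108051951, minus strand) encodes 323 residues and CD47-201 (chr3:108047284-108051951, minus strand) encodes 305, and capitals mark where they part.
CD47-202: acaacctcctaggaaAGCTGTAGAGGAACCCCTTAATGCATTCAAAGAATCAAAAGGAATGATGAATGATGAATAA
CD47-201: acaacctcctaggaaTAACTGA

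The 10 genes did not differ between FGL1-OE and NC beyond the spread of the libraries. Levels were deposited as FPKM (mapped fragments scaled by transcript length and library size), and differences are those of log2(FPKM + 1) fitted with limma to all 12017 genes with a mean of at least 0.5 FPKM. None of the 10 passed an adjusted p of 0.05 (limma, Benjamini-Hochberg), where 0.00832% of all genes did, which is FGL1 alone. None passed an unadjusted p of 0.05 (2.01% of all genes), and none had groups that did not overlap (7.15% of all genes). In FGL1-OE, 7 were higher and 3 lower, with a median log2 difference of 0.20 beside 0.02 over all genes tested, of which 53.7% were higher. Each adjusted p was 1.00. In bulk RNA, fewer cells of a kind and less RNA per cell cannot be told apart.

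By gene level, CMTM6 had the highest mean of the 10 in both groups and CD274 the lowest. By the sum of listed transcripts, which was not on a common scale with the gene level, CMTM6 was not the highest. In NC it summed to 41.0 FPKM, below NECTIN2 (58.1), LGALS3 (54.5), CD55 (52.0) and CD59 (43.4). In FGL1-OE it summed to 44.7 FPKM, below CD55 (61.8), LGALS3 (55.3) and NECTIN2 (53.2). The gene levels of CMTM6, LGALS3 and NECTIN2 had group means between 30.98 and 39.2 FPKM, above about 90% of the listed genes. CD55 and PVR lay between 19.1 and 24.1 FPKM, CD46 at 14.4 and 14.3 FPKM, and CD59 at 13.8 in NC and 11.8 in FGL1-OE. CD276 and CD47 lay between 4.64 and 5.64 FPKM. Among NC libraries the ranges of neighbours in the order overlapped throughout, except that CD47 (lowest 3.70 FPKM) stood above CD274 (highest 1.07 FPKM). Among the tighter FGL1-OE libraries, neighbours that did not overlap were LGALS3 and NECTIN2, NECTIN2 and PVR, CD55 and CD46, CD59 and CD47, and CD276 and CD274. The order of the other neighbours was not beyond their spread.

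**Figure D1:**
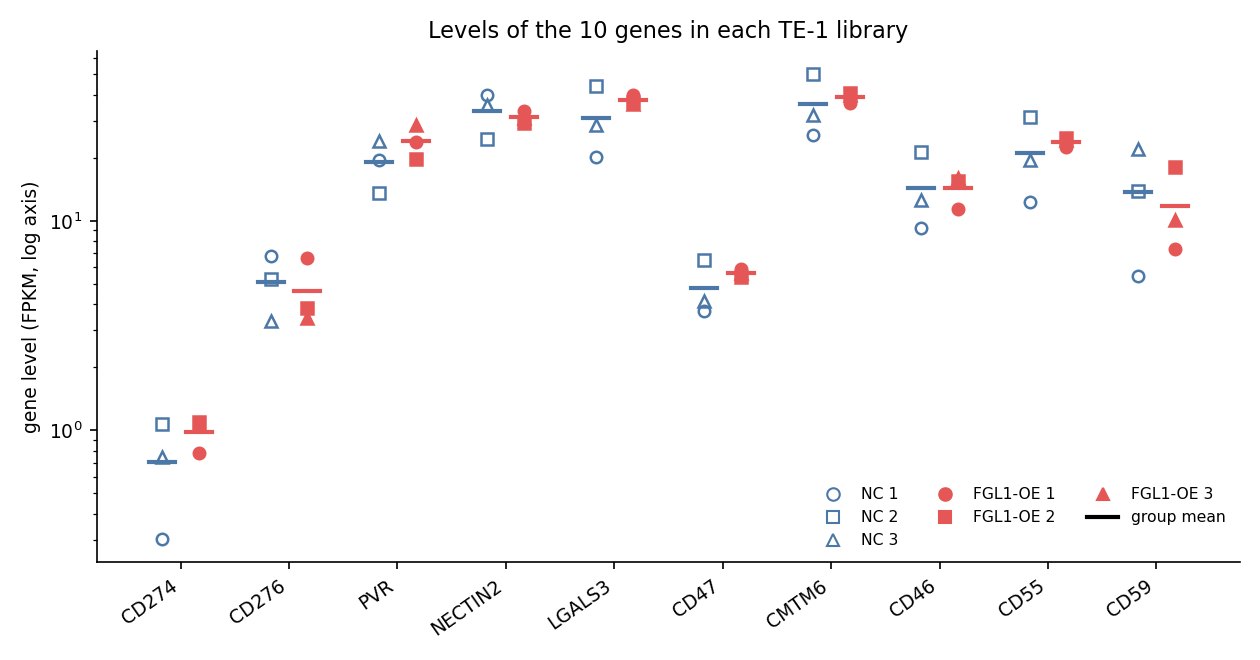
Gene level in FPKM on a log axis for each of the 10 genes, with 1 point per library (open, NC, filled, FGL1-OE, the shape giving the library number) and a bar at the mean of each group. The FGL1-OE points lie within or beside the range of the NC points for every gene, and NC 2 (open square) is the highest NC library for CD274, LGALS3, CD47, CMTM6, CD46 and CD55 and the lowest for PVR and NECTIN2.

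CD274 (ENSG00000120217, chr9:5450503-5470566 on GRCh37) was scarce in these cells. It had 0.303, 1.07 and 0.745 FPKM in NC 1, 2 and 3, and 0.776, 1.096 and 1.07 FPKM in FGL1-OE 1, 2 and 3. NC 1 stood below the rest, and the other 5 libraries overlapped. The log2 difference was 0.24 (SE 0.20, 95% interval -0.23 to 0.71), with an exact two-sided permutation p of 0.2, where 3 against 3 libraries cannot go below 0.1. On the scale of FPKM + 1 this interval allows from 0.853-fold to 1.63-fold. The single listed CD274 transcript, CD274-202, encodes the 290-residue protein and had 0.0797 to 1.13 FPKM in NC and 0.800 to 1.16 FPKM in FGL1-OE.

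CMTM6 (ENSG00000091317, chr3:32522804-32544900) had 25.8, 50.3 and 32.0 FPKM in NC and 36.5, 41.0 and 40.1 FPKM in FGL1-OE. All 3 FGL1-OE values fell inside the NC range. The log2 difference was 0.17 (SE 0.24, 95% interval -0.39 to 0.74, exact permutation p = 0.6). The level of CMTM6 was 37.4 to 85.1 times that of CD274, its partner, over the 6 libraries.

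CD276 (ENSG00000103855, chr15:73976307-74006859) had 6.80, 5.29 and 3.32 FPKM in NC and 6.66, 3.82 and 3.42 FPKM in FGL1-OE. The values spanned the same range in both groups, with a log2 difference of -0.12 (SE 0.29, 95% interval -0.79 to 0.54, exact permutation p = 0.9). Its transcripts encode a short form of 316 residues, which carries a single pair of immunoglobulin domains, and long forms of 534 and 533 residues with a duplicated pair. The 2 transcripts of the short form, CD276-201 and CD276-217, together held 59.2%, 45.6% and 48.8% of the summed listed CD276 transcripts in NC. In FGL1-OE they held 20.2%, 29.4% and 45.2%, so the groups did not overlap. The lowest NC share and the highest FGL1-OE share differed by little, and the split among single transcripts was unstable. CD276-202 alone went from 0.0546 to 6.84 FPKM within FGL1-OE, and CD276-217 from 0.0201 to 12.6 FPKM within NC.

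PVR (ENSG00000073008, chr19:45147098-45166850) and NECTIN2 (ENSG00000130202, chr19:45349432-45392485) are neighbours on chromosome 19, 182.581 kb apart, and serve the same receptors. PVR had 19.6, 13.6 and 24.1 FPKM in NC and 23.9, 19.7 and 28.6 FPKM in FGL1-OE. NC 2 was the lowest and FGL1-OE 3 the highest, with the rest interleaved. The log2 difference of PVR was 0.34 (SE 0.24, 95% interval -0.21 to 0.89, exact permutation p = 0.4), and its unadjusted limma p of 0.193 was the smallest of the 10. NECTIN2 had 40.0, 24.7 and 35.8 FPKM in NC and 33.4, 29.3 and 30.997 FPKM in FGL1-OE, all inside the NC range. Its log2 difference was -0.07 (SE 0.20, 95% interval -0.54 to 0.40, exact permutation p = 0.8).

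The listed transcripts of PVR include secreted forms. PVR-202, PVR-203 and PVR-204 encode the gamma, beta and delta forms, of 364, 372 and 392 residues, of which beta and gamma lack the membrane span and are secreted. Together they summed to a mean of 6.15 FPKM in NC and 5.09 FPKM in FGL1-OE, and the direction of that sum was opposite to that of the gene level (19.1 and 24.1 FPKM). Gene levels and transcript sums were not on a common scale, since for CD47 the listed transcripts summed to 19.4 FPKM in NC beside a gene level of 4.78 FPKM. The alpha form was not analysed here. The beta form was the most abundant of the 3 in each library, at 2.95, 3.52 and 6.12 FPKM in NC and 4.52, 3.66 and 1.41 FPKM in FGL1-OE. NECTIN2 had 2 main transcripts, NECTIN2-201 for the delta form of 538 residues and NECTIN2-202 for the alpha form of 479 residues. NECTIN2-201 had 26.3, 18.4 and 19.9 FPKM in NC and 17.9, 16.4 and 17.5 FPKM in FGL1-OE. All 3 FGL1-OE values lay below all 3 NC values, though NC 2 and FGL1-OE 1 nearly met, and the log2 difference was -0.29 (SE 0.24, exact permutation p = 0.1, unadjusted limma p = 0.277). NECTIN2-202 had 35.5, 21.4 and 39.8 FPKM in NC and 37.5, 31.8 and 33.9 FPKM in FGL1-OE, with overlap. Neither of the shorter NECTIN2-203 and NECTIN2-205, whose coding sequences are incomplete, exceeded 2.26 FPKM outside NC 1, where NECTIN2-205 had 9.15 FPKM.

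LGALS3 (ENSG00000131981, chr14:55590828-55612131) had 20.2, 43.9 and 28.8 FPKM in NC and 39.8, 36.8 and 36.3 FPKM in FGL1-OE. The FGL1-OE libraries agreed closely and sat between NC 3 and NC 2. The log2 difference was 0.34 (SE 0.27, 95% interval -0.28 to 0.96, exact permutation p = 0.4). Nearly all of its transcript level was LGALS3-201, which encodes the 250-residue galectin-3, except in FGL1-OE 2 and 3. There, LGALS3-204, with 233 residues and another C-terminal end, reached 15.01 and 11.9 FPKM, while it was listed at 0 in NC 1, NC 3 and FGL1-OE 1 and at 1.90 FPKM in NC 2. The share of LGALS3-201 was 99.3% in FGL1-OE 1 and 64.5% and 72.3% in the other two, so the groups overlapped.

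CD47 (ENSG00000196776, chr3:107762145-107809872) had 3.70, 6.52 and 4.14 FPKM in NC and 5.91, 5.39 and 5.61 FPKM in FGL1-OE. Here too all FGL1-OE values fell between NC 3 and NC 2, and the log2 difference was 0.23 (SE 0.20, 95% interval -0.24 to 0.70, exact permutation p = 0.4). Of the tails shown above, the longer one of CD47-202 held most of the transcript level in every library. Its share was 70.8%, 77.1% and 76.0% in NC and 66.9%, 72.5% and 74.99% in FGL1-OE. The shorter tail of CD47-201 held 14.3%, 16.5% and 9.34% in NC and 14.8%, 10.5% and 13.9% in FGL1-OE. CD47-205, an incomplete transcript, had 1.59 to 2.75 FPKM in NC and 2.62 to 4.86 FPKM in FGL1-OE. The balance of the tails differed by less than the spread between libraries.

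Among the complement shields, CD46 (ENSG00000117335, chr1:207925402-207968858) lies 365.252 kb from CD55 on chromosome 1. CD46 had 9.20, 21.4 and 12.6 FPKM in NC and 11.4, 15.5 and 16.1 FPKM in FGL1-OE, with a log2 difference of 0.06 (SE 0.29, 95% interval -0.63 to 0.74, exact permutation p = 1). The CYT-1 tail, summed over 3 transcripts, held 36.9%, 45.9% and 34.1% of the CD46 transcripts in NC and 44.3%, 39.2% and 38.4% in FGL1-OE. The CYT-2 tail, summed over 5 transcripts, held 50.8%, 51.0% and 47.4% in NC and 46.0%, 52.5% and 57.0% in FGL1-OE. Both tails thus had comparable estimated shares in TE-1 cells, CYT-2 above CYT-1 in all 6 libraries, with no difference between groups beyond the spread. Every 31-base word of CD46-201, CD46-203, CD46-204, CD46-205, CD46-207 and CD46-208 occurs in another listed CD46 transcript. How far the estimation set these shares was not tested. The transcripts CD46-206 and CD46-208 were high together in NC 2, at 13.6 and 15.2 FPKM, and low together in NC 1, at 2.58 and 2.76 FPKM. The other CD46 transcripts, CD46-201, CD46-202, CD46-203, CD46-204, CD46-205, CD46-207, CD46-210 and CD46-214, stayed at 3.30 FPKM or below in every library.

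CD55 (ENSG00000196352, chr1:207494853-207560149) had 12.3, 31.2 and 19.4 FPKM in NC and 22.6, 24.8 and 24.3 FPKM in FGL1-OE. The gene level overlapped between groups, with a log2 difference of 0.27 (SE 0.30, 95% interval -0.43 to 0.97, exact permutation p = 0.7). The log2 differences of its 5 listed transcripts ran from -0.75 to 1.97, with CD55-204 at 0.21 and CD55-206 at -0.06, and standard errors of 0.30 to 1.17. Of the 43 member transcripts, 41 passed the filter of 0.5 FPKM and none had an adjusted p under 0.05 (limma over 30330 transcripts, 0.0165% called). The only member transcript with an unadjusted p under 0.05 was CD55-201, beside 3.53% of all transcripts tested. CD55-201 had 18.4, 29.1 and 20.4 FPKM in NC and 10.2, 16.5 and 12.3 FPKM in FGL1-OE, so all FGL1-OE values lay below all NC values. The log2 difference was -0.75 (SE 0.30, unadjusted limma p = 0.0422, adjusted p = 1.00, exact permutation p = 0.1, the smallest possible). Groups that did not overlap were also seen for CD55-205 and NECTIN2-201, which makes 3 of 41 beside 8.22% of all transcripts.

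CD55-205 encodes the longest CD55 protein, of 550 residues, with the end shown for CD55-204. It was listed at 0 in NC 1 and had 22.8 and 15.1 FPKM in NC 2 and 3, against 29.98, 28.9 and 24.1 FPKM in FGL1-OE (log2 difference 1.97, SE 1.17, exact permutation p = 0.1, unadjusted limma p = 0.14). The size of this difference rested on the 0 in NC 1. Without NC 1 it was 0.54, with an unadjusted limma p of 0.103 and still no overlap. As shares of the summed CD55 transcripts, CD55-201 held 65.2%, 37.1% and 41.4% in NC and 16.9%, 26.1% and 19.997% in FGL1-OE, with an exact permutation p of 0.1. The 3 transcripts with the GPI-anchored end held 18.2%, 41.9% and 41.2% in NC and 59.8%, 56.9% and 52.6% in FGL1-OE, a mean of 33.7% ± 13.5 (SD, n = 3) against 56.4% ± 3.60 (SD, n = 3). The difference was 22.7 percentage points with all libraries, 14.9 without NC 1 and 26.8 without NC 2. CD55-203, with an end of its own, overlapped between groups at 4.71 to 16.5 FPKM in NC and 10.8 to 16.8 FPKM in FGL1-OE, as did CD55-204 and CD55-206. Groups of shares did not overlap for 2 of the 39 member transcripts with a share, CD55-201 and CD55-205, where 8.85% of all transcripts with a share had groups without overlap. Summed by protein end, the shares of the GPI-anchored end and of the end of CD55-201 had no overlap and those of the end of CD55-203 did. The summed level of the GPI-anchored end did overlap, at 5.14 to 32.8 FPKM in NC and 32.3 to 36.2 FPKM in FGL1-OE. The groupings by protein end, those of the other genes included, were made after the values were known and carry no test, and no share without overlap over all genes was computed for such groupings. Just 1.28% of the 31-base words of CD55-201 occur in no other listed CD55 transcript, so its level rests on few bases of its own, and how far the split was set by the estimation was not tested.

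**Figure D2:**
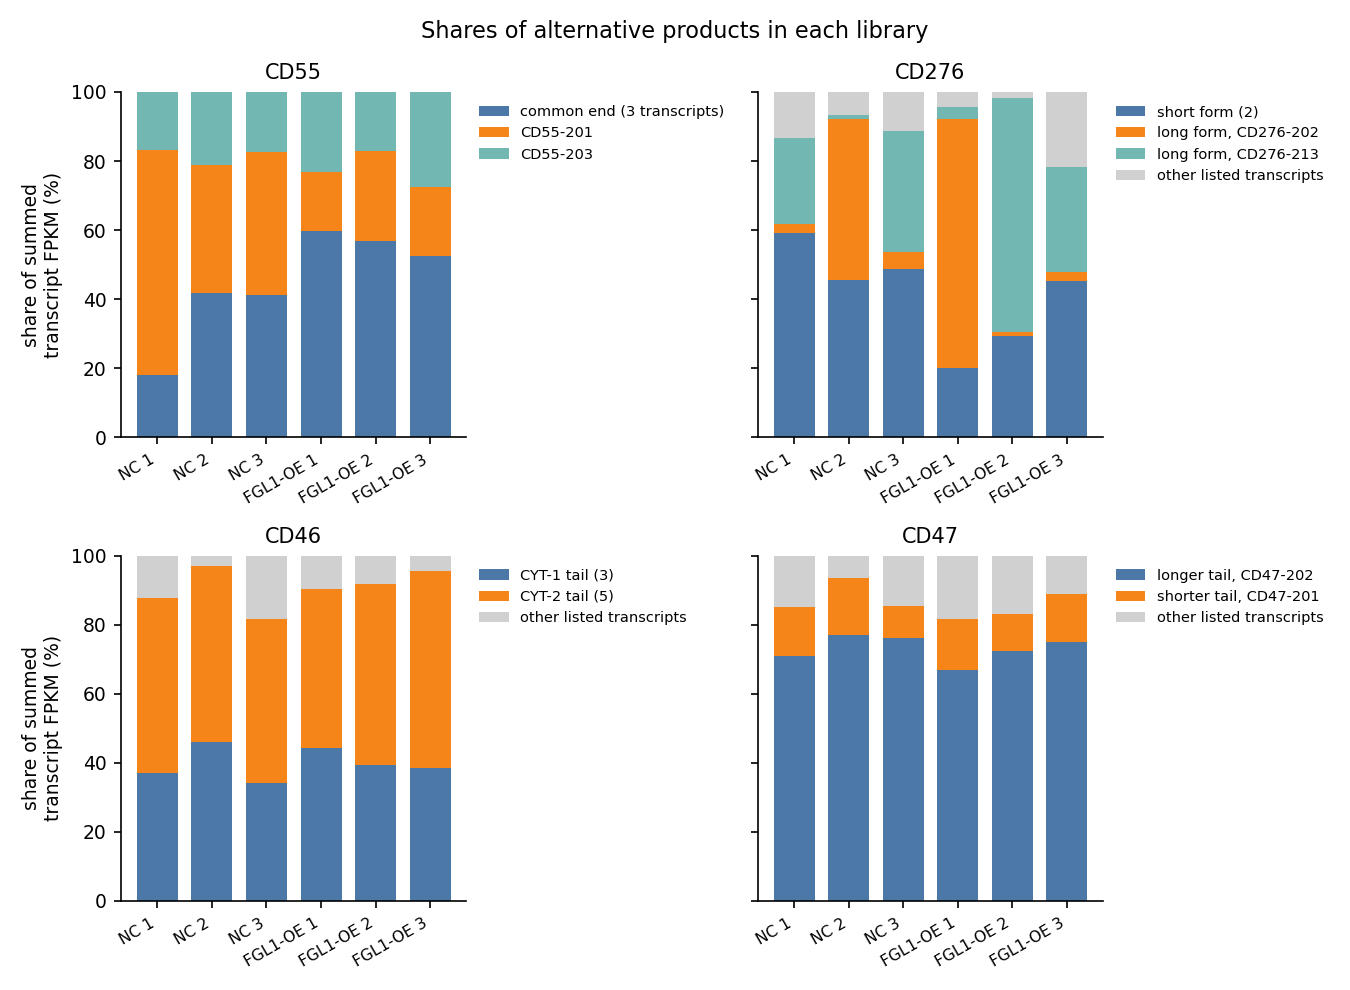
Share of the summed listed transcript FPKM of CD55, CD276, CD46 and CD47 held by each protein end or form, in percent, with 1 stacked bar per library and the rest in grey. The GPI-anchored CD55 end reaches 52.6% or more in each FGL1-OE library and at most 41.9% in NC, while the CD46 and CD47 tails show similar shares in both groups.

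CD59 (ENSG00000085063, chr11:33719807-33757991) was the most variable of the shields. It had 5.45, 13.9 and 22.1 FPKM in NC and 7.34, 18.1 and 10.1 FPKM in FGL1-OE, with a log2 difference of -0.11 (SE 0.49, 95% interval -1.24 to 1.02, exact permutation p = 0.9). That interval allows from 0.423-fold to 2.03-fold on the scale of FPKM + 1, so a change of that size was not detectable with these libraries. Of its 7 listed transcripts, 5 encode the same 128-residue precursor, and they held from 47.1% to 87.7% of the CD59 transcripts in NC and from 60.2% to 95.1% in FGL1-OE. CD59-203 ranged from 4.34 to 42.9 FPKM in NC and from 1.21 to 31.9 FPKM in FGL1-OE, whereas CD59-202 stayed between 3.77 and 8.52 FPKM in NC and 7.63 and 9.34 FPKM in FGL1-OE. CD59-201 had 1.19 to 6.03 FPKM in NC and 4.65 to 4.91 FPKM in FGL1-OE. CD59-204 and CD59-210 stood highest in NC 3, at 8.13 and 8.34 FPKM, and CD59-214, which encodes 130 residues, highest in NC 1, at 10.5 FPKM. The widest range of the 7 was that of CD59-203. Among FGL1-OE libraries CD59 had a coefficient of variation of 47.0% against 4.83% for CD55 and 17.7% for CD46.

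The NC libraries set most of the error of these comparisons. The coefficient of variation of the 10 genes ran from 23.6% to 60.3% among NC libraries and from 4.64% to 47.0% among FGL1-OE libraries. Over all genes tested, the median SD of log2(FPKM + 1) was 0.308 in NC and 0.121 in FGL1-OE, and the correlation of NC 1 with NC 2 was 0.885 against at least 0.981 for FGL1-OE pairs. The deviation of a gene from its mean followed its GC content, with Spearman's rho of 0.723, -0.774 and 0.459 for NC 1, 2 and 3 and of 0.278, -0.547 and -0.351 for FGL1-OE 1, 2 and 3 (across 11786 genes, which are not independent replicates). The log2 difference of NC 2 from NC 1 had a median of 0.72 for genes under 45% GC and -0.59 for genes of 55% or more.

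The member genes differed in the same directions by GC content, except LGALS3, and 3 of them lay far above genes of like GC content. NC 2 was above NC 1 in CD274, CD47, CMTM6, CD46, CD55 and CD59, with GC contents of 37.4% to 48.6%, by 0.67 to 1.28 on the log2 scale. It was below NC 1 in CD276, PVR and NECTIN2, with GC contents of 56.0% to 65.0%, by -0.31 to -0.67. LGALS3, at 56.0% GC, was higher in NC 2 by 1.08. Genes within 2 percentage points of the GC content of LGALS3, CD55 and CD59 had median differences of -0.28, 0.42 and 0.23, and these 3 genes stood above 99.0%, 96.7% and 97.5% of them. The other 7 stood above 32.1% to 83.0% of such genes. The part of GC content in the group differences was not tested.

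**Figure D3:**
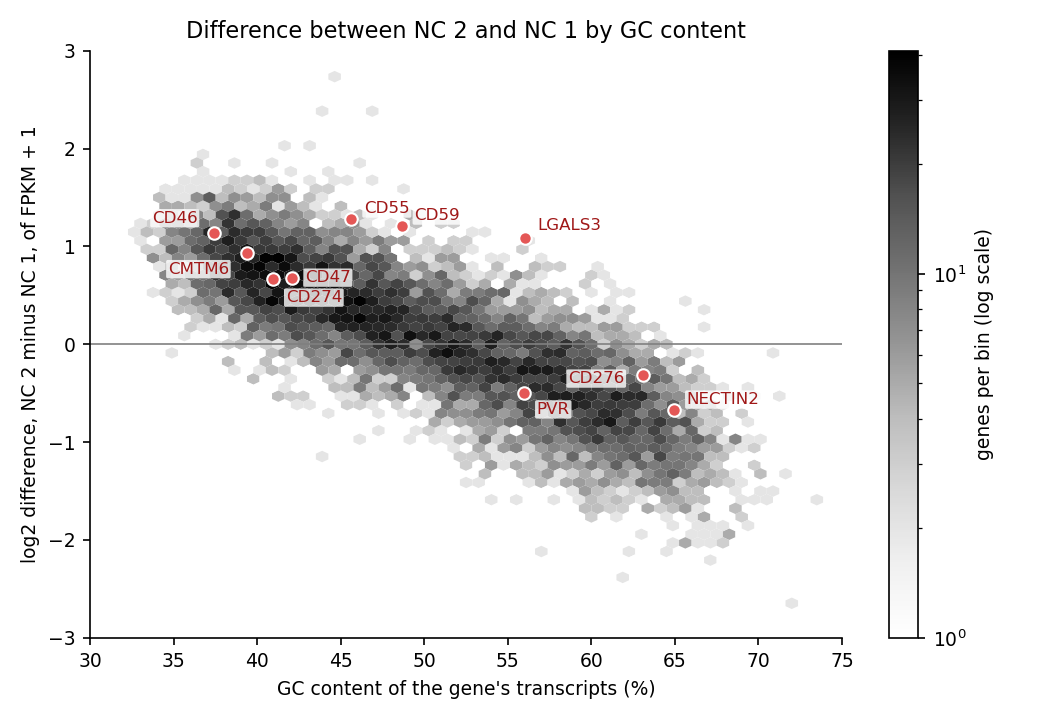
Difference of NC 2 from NC 1 in log2(FPKM + 1) for each gene (vertical axis) against the GC content of its transcripts in percent (horizontal axis), with all genes as grey bins and the 10 genes as red points. Differences fall from above 0 at low GC to below 0 at high GC, and LGALS3, CD55 and CD59 lie above 96.7% or more of the genes within 2 percentage points of their GC content.

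The direction of several genes rested on which NC library was kept. Without NC 2, the median difference of the 10 genes was 0.38, and 4 passed an unadjusted limma p of 0.05, namely LGALS3 (log2 difference 0.62), CD55 (0.59), CD47 (0.43) and CMTM6 (0.43). Their adjusted p-values by limma ran from 0.194 to 0.199. In the same fit 21.8% of all genes passed an unadjusted p of 0.05 and 42.8% did not overlap, beside 6 of the 10 genes. Without NC 1, the median was 0.06, none of the 10 passed an unadjusted p of 0.05, CMTM6, CD46 and CD55 were lower in FGL1-OE and CD276 and NECTIN2 higher. CD55-201 was lower in FGL1-OE whichever library was left out, from -0.57 without NC 2 to -0.93 without FGL1-OE 2. It passed an unadjusted limma p of 0.05 without NC 1 or FGL1-OE 2 and not without any of the 4 others. With NC 2 or NC 1 left out, CD274, LGALS3, CD47 and PVR stayed above 0 and CD59 below 0. PVR was at 0.13 without NC 2 and 0.38 without NC 1, but at -0.25 from the sum of its listed transcripts. After a trend with GC content and length was removed from each library, an alternative added after the data were seen, the median of the 10 genes was 0.12 and none passed an unadjusted p of 0.05, where 6.32% of all genes did.

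**Figure D4:**
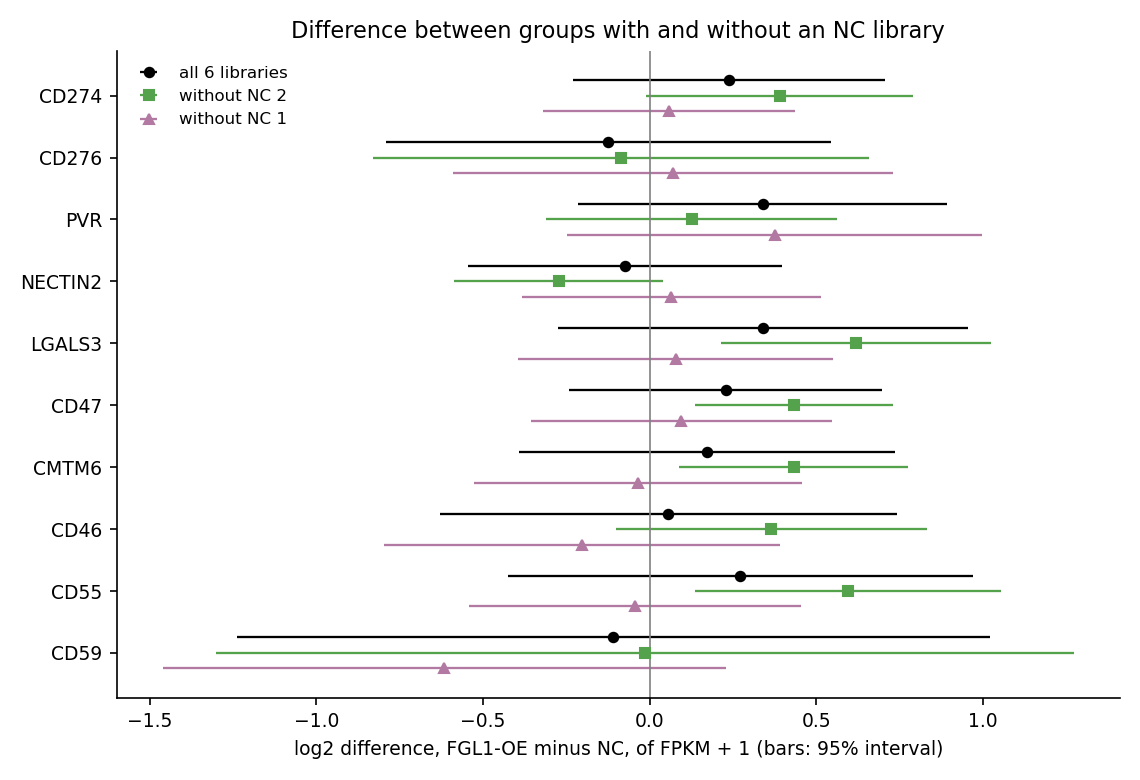
Log2 difference of FPKM + 1 between FGL1-OE and NC (horizontal axis, bars giving the 95% interval of the limma fit) for the 10 genes with all 6 libraries, without NC 2 and without NC 1. All intervals from 6 libraries include 0. Those of LGALS3, CD47, CMTM6 and CD55 lie above 0 when NC 2 is left out and include 0 when NC 1 is left out.

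Genes that act with the 10 were described in 9 lists. FGL1 itself had 0.0202, 0 and 0.106 FPKM in NC and 33.5, 39.3 and 39.9 FPKM in FGL1-OE (log2 difference 5.21, SE 0.15, exact permutation p = 0.1, adjusted p = 1.29e-05 by limma), so every library matched its label. A list of other checkpoint ligands and ligands of immune receptors had 19 of its 35 genes tested, with FGL1 among them. It was wider than checkpoint ligands alone and held, for example, CD44, CD58 and NT5E. Of the 19, 11 were higher and 8 lower, and FGL1 was the only one with an unadjusted p under 0.05. BTN3A2, a butyrophilin, had 1.29 to 1.55 FPKM in NC and 0.938 to 1.11 FPKM in FGL1-OE, without overlap. Of 15 genes in a list of natural killer cell ligands, which also held the receptor FAS, 10 were higher, 5 lower and none had an unadjusted p under 0.05. Among them MICA, a ligand of the activating receptor NKG2D, had 8.45 to 11.4 FPKM in NC and 11.6 to 12.8 FPKM in FGL1-OE, and the death receptor FAS had 0.940 to 1.86 FPKM in NC and 1.97 to 2.48 FPKM in FGL1-OE. The median difference of these lists was 0.07 and 0.01. Groups did not overlap for 2 of the 19 (FGL1 and BTN3A2) and 2 of the 15 (MICA and FAS), beside 7.15% of all genes. Without NC 2, 10 of the 19, with FGL1, CD44, CD58 and NT5E among them, had an unadjusted p under 0.05, beside 21.8% of all genes. In the same fit 2 of the 15, FAS and MICB, had one. Without NC 3, MICA alone of the 15 did, beside 1.57% of all genes.

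Genes of PD-L1 traffic and turnover were balanced, with 13 of 25 higher, 12 lower and none under an unadjusted p of 0.05. B3GNT3, a glycosyltransferase that acts on PD-L1, had 4.52 to 5.38 FPKM in NC and 5.59 to 7.003 FPKM in FGL1-OE. Of 22 transcription factors and receptors upstream of checkpoint ligands, 15 were higher and 7 lower. The NF-kB subunit RELA had 3.15, 3.50 and 5.89 FPKM in NC and 6.59, 6.14 and 5.96 FPKM in FGL1-OE (log2 difference 0.52, SE 0.21, exact permutation p = 0.1, unadjusted limma p = 0.0428, adjusted p = 1.00). NFKB1, its partner, had 8.19 to 9.38 FPKM in NC and 9.51 to 10.9 FPKM in FGL1-OE. Neither passed the adjusted threshold. RELA passed an unadjusted p of 0.05 without NC 3, beside 1.57% of all genes, but not without any of the 5 other libraries. Without NC 2, genes with an unadjusted p under 0.05 were 4 of 25 in PD-L1 traffic, 4 of 22 among the upstream genes and 2 of 9 among CD47 partners, beside the 21.8% of all genes. Of the 9 CD47 partners, 5 were higher and 4 lower. The CD47 receptor SIRPA had 1.21 to 2.83 FPKM in NC and 3.22 to 3.50 FPKM in FGL1-OE, and thrombospondin THBS1, another CD47 ligand, had 15.4 to 21.4 FPKM in NC and 21.5 to 26.6 FPKM in FGL1-OE. Groups did not overlap for 1 of 25 in PD-L1 traffic, 2 of 22 among the upstream genes and 2 of 9 among CD47 partners. Over all genes the share was 7.15%.

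Of the 13 complement genes tested, out of 41 in the list, 5 were higher and 8 lower, with a median of -0.09. C5AR1, the receptor of C5a, had 0.726, 1.05 and 0.671 FPKM in NC and 0.0861, 0.369 and 0.431 FPKM in FGL1-OE (log2 difference -0.49, SE 0.17, exact permutation p = 0.1, unadjusted limma p = 0.0228, adjusted p = 1.00). Every FGL1-OE value lay below 0.5 FPKM, so C5AR1 passed the filter only through its NC levels, near the floor. Its p-values are therefore not read as support for a difference. C3, the target of CD46 and CD55, had 20.6 to 26.3 FPKM in NC and 26.9 to 28.7 FPKM in FGL1-OE, and CFB, a subunit of the alternative convertase, had 4.12 to 5.09 FPKM in NC and 5.63 to 6.09 FPKM in FGL1-OE. Of 29 genes of GPI anchor synthesis, 15 were higher and 14 lower with a median of 0.00, and none had an unadjusted p under 0.05. MPPE1, which trims the anchor, had 3.04 to 3.15 FPKM in NC and 2.32 to 2.76 FPKM in FGL1-OE, and PIGT, a subunit of the transamidase that attaches it, had 3.28 to 3.86 FPKM in NC and 4.08 to 4.39 FPKM in FGL1-OE. Of 9 genes of the CMTM and MARVEL family, 7 were higher and 2 lower, and PLLP had 0.654 to 0.711 FPKM in NC and 0.727 to 0.954 FPKM in FGL1-OE. The galectin list had 4 genes tested, LGALS3BP among them, which encodes a binding protein of galectin-3 and not a galectin. Of the 4, 3 were higher and 1 lower. The most abundant, LGALS1 and LGALS3BP, overlapped between groups at 155 to 254 and 44.9 to 102 FPKM in NC. Without NC 2, 7 of 29 genes of GPI anchor synthesis and 3 of 9 of the CMTM and MARVEL family had an unadjusted p under 0.05. So did 1 of 4 in the galectin list (LGALS8), beside the 21.8% of all genes. Without NC 1, LGALS3BP of the galectin list and QPCT among CD47 partners had one, beside 2.75% of all genes. C5AR1, which passed the filter only through NC, kept an unadjusted p under 0.05 without each library except FGL1-OE 1. In those fits 1.14% to 21.8% of all genes had one. With all 6 libraries, no listed gene outside FGL1 passed the adjusted threshold. Groups did not overlap for 3 of 13 complement genes, 2 of 29 for GPI anchor synthesis, 1 of 9 in the CMTM family and 0 of 4 in the galectin list. Over all genes the share was 7.15%.

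Among the genes whose levels were most like those of PVR over the 6 libraries were PMM2 (Pearson's r = 0.976) and BHLHA15 (r = 0.971), out of all genes tested. Both were picked for high r from many genes over 6 libraries, and a link to PVR was not tested. Markers of squamous epithelium summed to 485 to 779 FPKM in NC and 688 to 777 FPKM in FGL1-OE over 9 of 12 genes. KRT14, SOX2 and PKP1 were not listed. Of 11 leukocyte markers only CD68, CD14 and HLA-DRA were listed, with a sum of 3.26 to 6.33 FPKM in NC and 4.06 to 5.67 FPKM in FGL1-OE. Of 7 fibroblast markers 3 were listed, with a sum of 2.29 to 8.11 FPKM in NC and 3.24 to 8.27 FPKM in FGL1-OE, and of 4 endothelial markers none was.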

How the data were processed

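Poly(A) RNA of 6 TE-1 libraries was sequenced by the authors with a stranded kit on an Illumina NovaSeq. They deposited FPKM values per gene and per transcript, without read counts, and the submitters' processing notes name StringTie and GRCh37 with no version. Whole read counts could not be recovered from low values, so depth is unknown. The authors also deposited log2 group means, log2 and linear fold changes, p-values and q-values of their own comparison, none of which was used. Groups followed the labels. With limma 3.58.1 in R 4.3.3, log2(FPKM + 1) was fitted for genes or transcripts that averaged 0.5 FPKM or more, two-sided, with Benjamini-Hochberg adjustment within each table, and exact permutation tests were run over libraries. On simulated data with 200 changed genes, the fit of 12017 genes recovered 38.5% of changes of 1 on the log2 scale, 89.5% of changes of 2 and 99.5% of changes of 4. With 200 changed transcripts of 30330 it recovered 0% of changes of 1 or 2 and 72.0% of changes of 4. In those data 5.26% to 5.49% of unchanged genes had an unadjusted limma p under 0.05, beside 2.01% of all genes in the deposited data. How far these recovery rates hold for the deposited libraries was not tested. Shares are a transcript's percent of the summed listed transcripts of its gene. Gene levels were not sums of the listed transcripts. Lengths, GC content and coding sequences came from GENCODE release 29, matched by transcript ID for 99.6% of transcripts. Transcripts with incomplete coding sequence were left out of the groupings by protein end. Named are all 10 genes, their transcripts of at least 1 FPKM on average in a group or with an unadjusted p under 0.05, and from each list up to 4 genes with an unadjusted p under 0.05 or groups without overlap, otherwise the 2 most abundant. A gene and a sequence that these rules would name are not reported here. The members and lists were chosen with earlier results of these data known. Alternatives were another pseudocount, filter, scaling and variance model, a replicate block, each library left out, and a removed GC and length trend.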

Additional observations from a re-analysis of the deposited data

How the results depend on the processing

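None of the 10 genes and none of their 38 named transcripts passed an adjusted p of 0.05 (limma) under any alternative, the smallest adjusted p being 0.194 for genes and 0.237 for transcripts. Genes called were 1, and 2 both with an ordinary linear model and after removal of the GC and length trend. Transcripts called were 5, 29 with a pseudocount of 0.1, 3 with an ordinary linear model and 0 with the replicate block. Genes with an unadjusted p under 0.05 were 242, 374 with an ordinary linear model and 745 after removal of the GC trend. Transcripts of the 10 genes with an unadjusted p under 0.05 were 1 (CD55-201), and 0 with a pseudocount of 0.1 or scaling to a common sum. The cause was not tested. Leaving out each library in turn gave 1 to 7 genes called, 1 to 28 transcripts called, 137 to 2618 genes and 874 to 2738 transcripts with an unadjusted p under 0.05, and among the members 0 to 4 genes and 0 to 3 transcripts, with the highest of each when NC 2 was left out. Without NC 2, NC 3, FGL1-OE 1 or FGL1-OE 3, CD55-201 was no longer past an unadjusted p of 0.05, at -0.57 to -0.81 on the log2 scale. The median difference of the 10 genes was 0.20 and 0.01 from the sum of listed transcripts.

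The replicate numbers went with the correlation of the libraries for NC 1 and NC 2 but not for NC 3. Deviations of same-numbered libraries correlated at 0.345, 0.282 and -0.061. NC 1 and NC 2 each correlated best with the FGL1-OE library of their number, and NC 3 with FGL1-OE 1 (0.111). The replicate block gave 1 gene and 0 transcripts called and changed no call of a member. With it, PVR had an unadjusted limma p of 0.0712, and 298 genes had an unadjusted p under 0.05.

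No value that changed sign had an adjusted p under 0.05 (limma), and NECTIN2-205, at 0.60 without NC 1, alone passed an unadjusted p of 0.05. PVR was -0.25 and CD46 -0.033 from the sum of listed transcripts. After removal of the GC trend, NECTIN2 was 0.037, CD46 -0.025, CD46-201 -0.064, CD46-206 -0.022, CD46-208 -0.074 and CD46-214 -0.084. CD46-208 was -0.011 with quantile normalization. CD276-213 was 0.025 and CD55-206 0.48 with a pseudocount of 0.1, and CD55-206 was 0.10 with scaling to a common sum. With each library left out in turn, the log2 difference ran from -0.37 to 0.070 for CD276, -0.27 to 0.065 for NECTIN2, -0.035 to 0.43 for CMTM6, -0.20 to 0.37 for CD46, -0.045 to 0.59 for CD55 and -0.62 to 0.30 for CD59. For transcripts it ran from -1.001 to 0.52 for CD276-202, -0.87 to 0.43 for CD276-213, -1.30 to 0.57 for CD276-217, -0.13 to 0.00082 for PVR-202, -0.59 to 0.014 for PVR-203, -0.13 to 0.30 for NECTIN2-202, -0.73 to 0.021 for NECTIN2-203, -0.85 to 0.60 for NECTIN2-205, -0.75 to 0.0085 for LGALS3-201, -0.032 to 0.44 for CMTM6-201, -0.11 to 0.10 for CD46-201, -0.38 to 0.71 for CD46-206, -0.45 to 0.60 for CD46-208, -0.49 to 0.19 for CD46-210, -0.11 to 0.10 for CD46-214, -0.43 to 1.11 for CD55-204, -0.92 to 1.07 for CD55-206, -0.91 to 0.39 for CD59-210 and -1.62 to 0.14 for CD59-214. Depth is unknown, so no limit from counting error can be given.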
